A study of Mus musculus with 3 samples.

Results

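ATP-binding cassette (ABC) transporter genes were examined in glomeruli of nondiabetic mice. The members were all genes whose symbol names an ABC subfamily from A to G with a number, and Cftr, and they were chosen by name and not by any measured value. The array held 94 probe sets that list 1 such gene, which stand for 46 of the 18194 genes measured. Glomeruli had been isolated from the kidneys of 3 male mice of the inbred strain FVB/NJ at 8 weeks of age. In the series they are the nondiabetic controls for diabetic OVE26 mice, and the labels name no transgene or agent for them. Each mouse gave 1 Affymetrix mouse whole-genome array, which reads the 3′ part of transcripts. The mice are called mouse 1, mouse 2 and mouse 3, and the diabetic animals were not analysed here, which leaves a single group. Values are log2 GCRMA expression values, errors are the SD over the 3 mice (n = 3), and a value counts as above background when it exceeds the 95th percentile of olfactory and vomeronasal receptor probe sets on the same array.

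ABC transporters are membrane proteins that use the energy of ATP to move lipids, drugs, organic anions, peptides or other molecules across membranes. Most members pump their substrates out of the cell or into an organelle, while some regulate or form ion channels, and subfamilies E and F lack a membrane part and act on ribosomes. In the kidney they are best known from the proximal tubule, whose cells export drugs and organic anions into the urine, and from podocytes, in which the cholesterol exporter encoded by Abca1 has been linked to lipid accumulation in diabetic kidney disease.

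The arrays had similar medians (2.82 to 2.85), and their background thresholds lay between 2.58 and 2.91. Above background in all mice were 9 of 9 podocyte, 10 of 10 glomerular endothelial and 7 of 7 mesangial and pericyte marker genes. Of all genes 58.3% were. So were 6 of 12 markers of loop, distal tubule and collecting duct, among them Umod at 12.47, 13.56 and 13.06 in mice 1, 2 and 3. The call alone thus does not tell glomerular from tubular tissue. Proximal tubule markers were also present, with 14 of 16 above background in all mice, all 14 highest in mouse 3, and a mean over these 14 of 5.40, 6.33 and 8.31 in mice 1, 2 and 3. Of 14 macrophage and leukocyte markers, 8 were above background in all mice and 4 were below it in all, and the mean over the 8 was 7.57, 6.62 and 5.99. These are bulk samples, in which fewer cells of a type and less RNA per cell cannot be told apart. Probe sets differ in how strongly they bind, so the level of a gene is not set against that of another gene.

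Of the 46 members, 23 (50.0%) were above background in all 3 mice, where 58.3% of all genes were. Below background in all mice were 19 members (41.3%, against 35.3% of all genes), and 4 gave mixed calls. Subfamily A, mostly lipid transporters, had 7 of 14 members above background in all mice. Subfamily B, which holds drug pumps and organelle transporters, had 3 of 8. Subfamily C, the multidrug resistance proteins with the channel members, had 5 of 11. Subfamily D, mostly fatty acid transporters of the peroxisome, had 2 of 3, and subfamily G, transporters of sterols, urate and drugs, had 2 of 6. All 4 soluble members of subfamilies E and F were above background in all mice. The plot of calls by subfamily shows these counts.

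**Figure D1:**
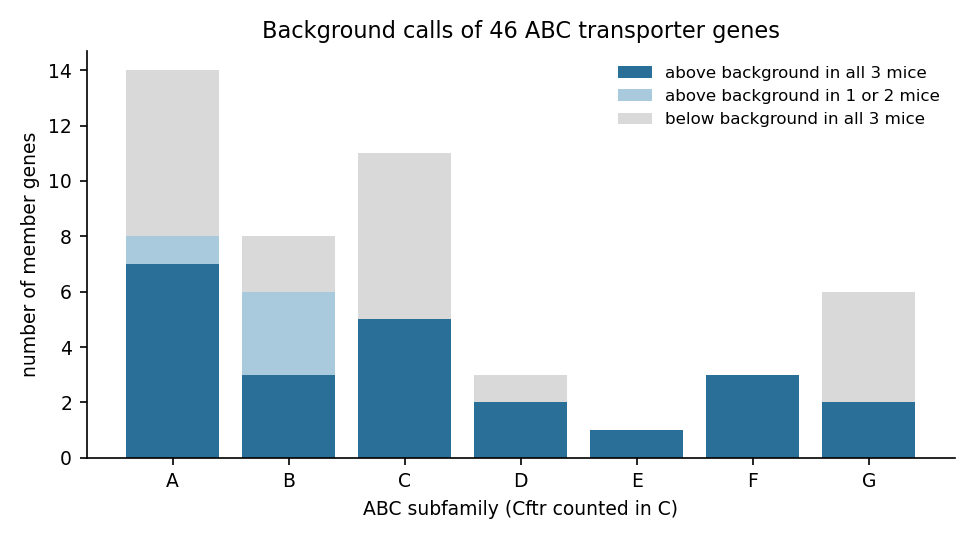
Number of member genes (vertical axis) in each ABC subfamily (horizontal axis), stacked by background call. All members of subfamilies E and F were above background in all 3 mice, and subfamily B holds 3 of the 4 members with mixed calls.

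Several members lie beside each other in the genome with different calls. In the RefSeq gene table (GRCm38.p6), Abca8b, Abca8a, Abca9, Abca6 and Abca5 follow each other on chromosome 11. Abca8b, Abca9 and Abca5 were above background in all mice, and the genes between them, Abca8a and Abca6, were below it in all. Abca8b was only just above it, at 3.09, 3.17 and 2.92 in mice 1, 2 and 3, and was lost under stricter thresholds. A second probe set of Abca9 was below background in all mice, at 1.70, 1.70 and 1.89. On chromosome 5, Abcb1a, Abcb1b and Abcb4 follow each other. The first was above background in all mice, Abcb1b in mouse 3 only and Abcb4 in none. The 250 bases before the RefSeq start (GRCm38.p6) are shown for a pair from each cluster, and for Abcg2, the member with the largest SD, to set the upstream sequence beside the calls. They are written 5′ to 3′ on the gene's strand in lower case, and capitals mark motif matches on either strand. The TATA box was searched for as TATAAA, the GC box as GGGCGG and the E-box as CACGTG. The box named CCAAT was searched for by those letters, and none of the motifs contains another.
Abcb1a, chr5:8566841-8567090, plus strand: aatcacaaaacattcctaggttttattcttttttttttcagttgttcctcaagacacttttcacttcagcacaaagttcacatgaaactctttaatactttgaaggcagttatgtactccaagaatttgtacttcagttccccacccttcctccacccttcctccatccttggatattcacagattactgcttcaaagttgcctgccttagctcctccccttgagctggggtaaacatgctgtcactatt
Abcb1b, chr5:8797897-8798146, plus strand: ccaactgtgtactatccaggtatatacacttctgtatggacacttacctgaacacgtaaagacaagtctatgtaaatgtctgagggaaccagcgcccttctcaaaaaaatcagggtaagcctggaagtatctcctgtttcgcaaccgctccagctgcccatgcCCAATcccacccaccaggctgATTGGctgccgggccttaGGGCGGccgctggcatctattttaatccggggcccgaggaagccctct
Abca9, chr11:110168154-110168403, minus strand: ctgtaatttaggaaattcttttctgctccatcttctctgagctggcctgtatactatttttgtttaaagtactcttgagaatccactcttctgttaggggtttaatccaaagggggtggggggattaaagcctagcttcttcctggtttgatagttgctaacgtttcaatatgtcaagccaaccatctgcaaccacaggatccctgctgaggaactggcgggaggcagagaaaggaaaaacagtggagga
Abca8a, chr11:110095938-110096187, minus strand: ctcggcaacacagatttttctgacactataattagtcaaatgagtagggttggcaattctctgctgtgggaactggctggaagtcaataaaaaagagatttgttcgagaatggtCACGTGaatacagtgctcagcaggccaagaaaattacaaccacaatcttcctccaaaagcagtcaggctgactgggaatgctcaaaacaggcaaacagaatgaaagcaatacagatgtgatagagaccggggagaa
Abcg2, chr6:58640296-58640545, plus strand: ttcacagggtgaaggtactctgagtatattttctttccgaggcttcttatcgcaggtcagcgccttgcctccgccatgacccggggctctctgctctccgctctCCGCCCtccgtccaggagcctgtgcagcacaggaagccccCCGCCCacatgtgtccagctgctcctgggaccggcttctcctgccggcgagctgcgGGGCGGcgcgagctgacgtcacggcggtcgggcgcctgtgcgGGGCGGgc

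The windows of Abcb1a and Abca9, both above background, held none of these motifs and only 0 and 2 CpG dinucleotides. Abcb1b had CCAAT and GC boxes and 9 CpG dinucleotides, and Abca8a had an E-box and 4. Other genes of these clusters differed from the pairs shown. Abca5 and Abca8b, above background in all mice, each had a GC box, with 25 and 6 CpG dinucleotides. Abcb4, below background in all mice, had CCAAT and GC boxes and 18. Abcg2 has 3 windows in the table, of which the one printed is the richest in CpG, with 23, against 3 and 10. The table held 43 windows for 36 of the 46 members. Of the 24 windows of members above background in all mice, 58.3% had a GC box and the median was 18.5 CpG dinucleotides. In the 19 windows of the other members these were 36.8% and 6. Over all genes the median was 16 CpG dinucleotides for those above background in all mice and 5 for the rest, so the difference ran the same way over all genes. A GC box was in 32.7% of all 32851 windows, a TATA box in 12.4%, a CCAAT box in 33.8% and an E-box in 6.02%. Among the 43 windows of members the shares were 48.8%, 11.6%, 27.9% and 9.3%. For the GC box the share over all genes was 58.7% for those above background in all mice and 32% for the rest, close to the 58.3% and 36.8% of the members. A motif match describes these letters and is not a binding site.

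Among exporters of cholesterol, phospholipid and retinoids, 5 of 8 were above background in all mice. Abca1, which loads cholesterol onto apolipoprotein A-I, was at 9.44, 9.59 and 9.41 in mice 1, 2 and 3 (SD 0.10). Its other probe sets were below background in all mice, at 1.91, 1.86 and 1.88 and at 2.29, 2.30 and 1.95. Abcg1, which passes cholesterol to lipoprotein particles, was at 8.83, 8.22 and 8.55 (SD 0.31), a 1.53-fold range. The mice thus lay within 1.14-fold of each other for Abca1 and further apart for Abcg1, with mouse 2 lowest. Abca7, a lipid transporter linked to phagocytosis, was at 7.32, 7.83 and 7.40, with mouse 2 the highest. Abca3, known for phospholipid loading of lamellar bodies in the lung, was at 9.41, 9.57 and 9.58, and its SD of 0.09 was the fourth smallest of the members. Abca2, a lipid transporter of endosomes and lysosomes, was at 4.35, 4.42 and 5.03, and mouse 3 was highest by 0.64 over the mean of the others. Abca4, the retinoid transporter of photoreceptors, Abca12, the lipid transporter of the skin barrier, and Abcg4 were below background in all mice.

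Of the other 8 genes of subfamily A, 3 were above background in all mice. Abca9 was at 9.95, 9.59 and 9.57, with mouse 1 the highest, and Abca5, found in lysosomes and endosomes, was at 9.22, 9.56 and 9.39. Abca8b lay just over background, at 3.09, 3.17 and 2.92, and was lost under stricter thresholds. Abca13 gave a mixed call, at 2.02 in mouse 1, below background, and 3.37 and 3.73 in mice 2 and 3. Abca6, Abca8a, Abca14 and Abca16 were below background in all mice. None of the 4 genes for export into bile or gut lumen was above background in any mouse. These were Abcb4, which flips phosphatidylcholine, the bile salt pump gene Abcb11, and Abcg5 and Abcg8, whose products together export sterols.

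Drug, anion and nucleotide exporters were above background in all mice for 6 of 12 genes. Abcg2, which encodes an exporter of urate and many drugs, was at 9.27, 9.25 and 10.17 in mice 1, 2 and 3 (9.57 ± 0.52). Mice 1 and 2 were nearly equal, and mouse 3 stood 0.90 above their mean, the largest difference of any mouse for a member above background. The range was 1.89-fold, and without mouse 3 the SD was 0.01. Proximal tubule markers were also highest in mouse 3, by a median of 2.47 and for 14 of 14 genes, with means of 5.40, 6.33 and 8.31 in mice 1, 2 and 3. Their part in the Abcg2 value was not tested. Abcc2, an apical anion exporter of the proximal tubule, was below background in all mice, and so was Abcc6.

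Abcb1a, which encodes a P-glycoprotein drug pump known from the endothelium of the blood-brain barrier, was at 7.54, 6.86 and 7.59 (7.33 ± 0.41), so that mouse 2 was lowest by 0.70. The other P-glycoprotein gene, Abcb1b, was at 2.39, 2.72 and 2.97 and exceeded background in mouse 3 only. The genes are close paralogs, and the probe sets may share signal. Abcc4, an exporter of cyclic nucleotides, urate and prostaglandins, was at 8.82, 8.29 and 8.98 (8.70 ± 0.36), with mouse 2 lowest by 0.62. Glomerular endothelial markers were lower in mouse 2 as well, by a median of 0.14 with 5 of 10 genes lowest there. Of all genes above background, 34.5% were lowest in mouse 2. Mesangial and pericyte markers had a median difference of −0.12 in mouse 2, with 3 of 7 genes lowest there. The probe sets given for Abcb1a and Abcc4 were highest in mouse 3. A second probe set of Abcb1a was highest in mouse 1 (7.63, 6.69 and 7.19). Of the endothelial markers 7 of 10 were highest in mouse 1, against 34.0% of all genes above background. The part of either marker list in these values was not tested. Abcc1, the glutathione conjugate exporter MRP1, was at 9.28, 9.36 and 9.16 (SD 0.10), and Abcc5, a cyclic nucleotide exporter, at 6.06, 5.71 and 5.74. Abcc3, a basolateral exporter of glucuronides, lay near background at 3.06, 3.15 and 3.10, where its SD of 0.04 was the smallest of the members. The typical SD at its level was 0.21. With values this near background, the SD of Abcc3 does not show a steady level. Abcc3 was also lost under stricter thresholds, and Abcc10, Abcc12 and Abcg3 were below background in all mice.

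Of the members that act in or on ion channels, 1 of 3 was above background in all mice. Abcc9, which encodes SUR2, the regulatory subunit of ATP-sensitive potassium channels in vascular smooth muscle and pericytes, was at 9.78, 10.02 and 9.90 (9.90 ± 0.12). Its channel partner Kcnj8 was at 3.87, 3.93 and 4.04, and Kcnj11, the pore gene of the pancreatic channel, at 3.71, 3.72 and 3.50, both above background in all mice. These 2 genes were named for their role after their values were seen. Abcc8, which encodes the pancreatic subunit SUR1, and the chloride channel gene Cftr were below background in all mice.

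Transporters of mitochondria and lysosomes were above background in all mice for 2 of 4 genes. Abcb10, a mitochondrial inner membrane protein needed for heme synthesis in red cell precursors, was at 7.28, 7.49 and 7.03 (SD 0.23), and Abcb6, linked to porphyrin transport, at 4.30, 4.63 and 4.37. Both were highest in mouse 2. The mitochondrial gene Abcb8 was above background in mice 1 and 2 (2.78, 2.93 and 2.58), and the lysosomal peptide transporter gene Abcb9 in mice 1 and 3 (3.47, 2.68 and 3.26). Abcb8 lay near the thresholds of 2.58, 2.91 and 2.86 in each mouse, and Abcb9 had a 1.72-fold range.

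The members left are those of subfamily D, of which 2 of 3 were above background in all mice, and the soluble members of subfamilies E and F. Abcd3, which encodes the peroxisomal membrane protein PMP70, was at 9.80, 9.99 and 9.88 (9.89 ± 0.09). Abcd4, needed for cobalamin export from lysosomes, was at 4.65, 4.79 and 4.75 (4.73 ± 0.07), a 1.10-fold range, and Abcd2, a very long chain fatty acid transporter, was below background in all mice. Abce1, which splits ribosomes for recycling, was at 9.58, 9.61 and 9.34 (SD 0.15). Abcf1, a factor of translation initiation, was at 9.59, 9.48 and 9.59, and the values of mice 1 and 3 were identical, a tie that lowers its SD (0.06). Abcf2 was at 4.51, 4.20 and 4.41, and Abcf3 at 7.34, 7.13 and 7.14, with mouse 1 the highest for both. The 4 members with the smallest SD were Abcc3, Abcf1, Abcd4 and Abca3.

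**Figure D2:**
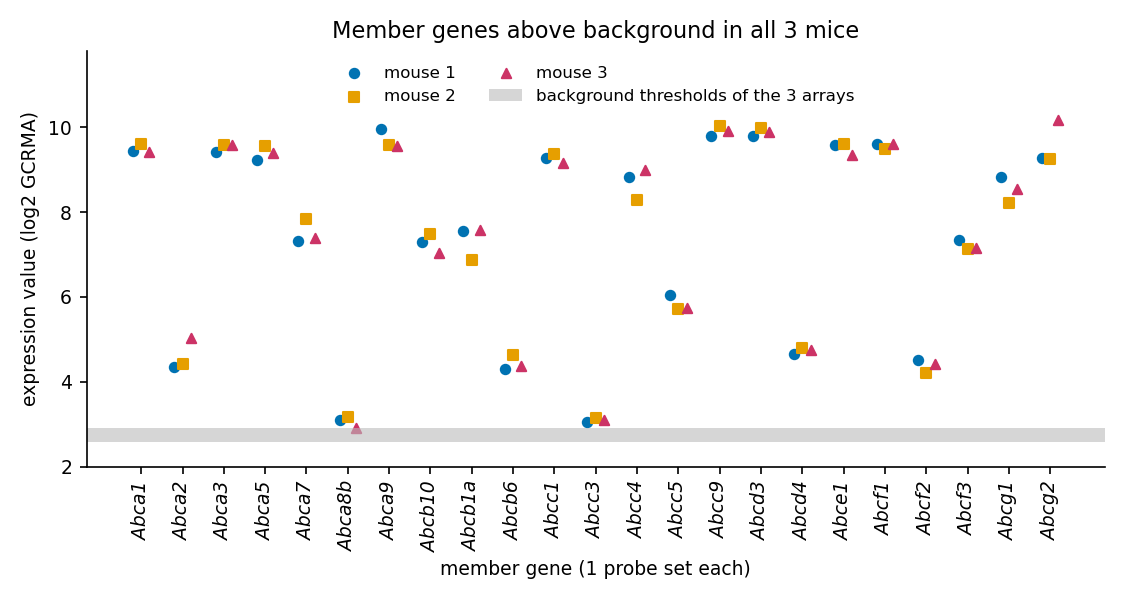
Expression value (log2 GCRMA, vertical axis) of each of the 23 members above background in all mice (horizontal axis), with a point for each mouse and a grey band for the background thresholds (2.58 to 2.91). The points of most genes lie close together, Abcg2 has mouse 3 apart at 10.17, and Abca8b and Abcc3 lie next to the band.

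No member above background had a 2-fold range between the highest and the lowest mouse (0 of 23), where 5.94% of all 10610 genes above background had one. With so low a background share, a count of 0 among 23 genes is not a result about the members. Their median SD was 0.159, against 0.157 over all genes above background, and the SDs ran from 0.04 for Abcc3 to 0.52 for Abcg2. The largest SDs after Abcg2 were those of Abcb1a (0.41), Abca2 (0.37), Abcc4 (0.36) and Abcg1 (0.31), ranked after their values were seen. The ranges of these 4 genes were 1.65-fold, 1.60-fold, 1.62-fold and 1.53-fold.

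Whether a gene varied more between mice than other genes of its level was tested with limma, by setting each variance against the distribution fitted over all 10610 genes. With Benjamini-Hochberg adjustment 0 of 23 members and 0% of all genes passed an adjusted p of 0.05. At an unadjusted p of 0.05 there was 1 member (4.35%), Abcg2, against 4.66% of all genes. Abcg2 had an SD of 0.52 where 0.13 is typical at its level, with an unadjusted p of 0.0220 and an adjusted p of 0.862 by limma over the 3 arrays. This test finds little with 3 arrays. The proximal tubule marker Miox, at 4.20, 5.48 and 8.52 in mice 1, 2 and 3 (SD 2.22), had an adjusted p of 0.602 by limma and did not pass either. The lack of calls therefore does not show that the mice were alike.

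**Figure D3:**
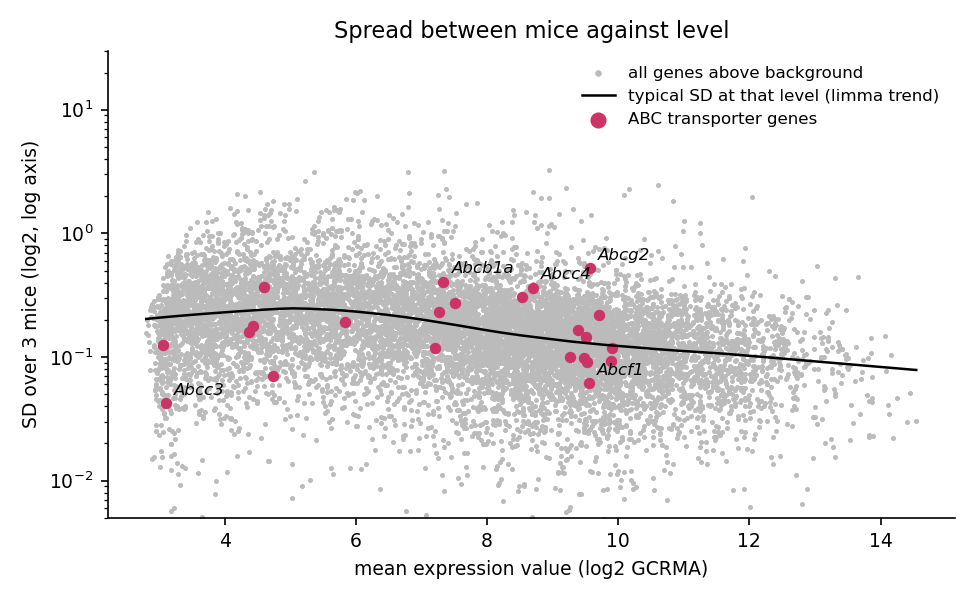
SD over the 3 mice (log2, on a log axis) against the mean expression value (log2 GCRMA) for all genes above background in grey and the 23 members in red, with the typical SD at each level as a line. The members spread to both sides of the line, with Abcg2 at 0.52 and Abcc3 at 0.04 as the extremes (33 genes with an SD below the axis are not drawn).

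Which mouse was highest differed between members. The median difference of a mouse from the mean of the other 2 was 0.02 for mouse 1, 0.07 for mouse 2 and −0.01 for mouse 3, against 0.00, −0.02 and 0.01 over all genes above background. Mouse 2 was highest for 12 of 23 members (52.2%, against 28.2% of all genes). Mice 1 and 3 were each highest for 5 (21.7%, against 34.0% and 36.3% of all genes), and Abcf1 was tied. The lowest value lay in mouse 1 for 9 members (32.0% of all genes), in mouse 2 for 8 (34.5%) and in mouse 3 for 6 (31.7%). With the probe set of the highest mean standing for each gene, mouse 2 was thus highest for more members than the other mice. Abcb1a, Abcc4 and Abcg1 were among the 8 that were lowest there. When all probe sets of a gene were averaged instead, mice 2 and 3 were each highest for 9 of 23 members and mouse 1 for 5. Mouse 2 then no longer led. Its share was 39.1% of members, against 28.5% of all genes, and its median difference turned to −0.02. The 18 spike-in controls of bacterial and phage sequence also had their highest values in mouse 2, each of them, by a median of 0.54. The mean levels were highest there as well for loop, distal tubule and collecting duct markers (6 of 12 above background, means of 6.68, 7.80 and 7.45) and smooth muscle markers (4 of 6, means of 8.50, 8.82 and 8.33). The part of these in the count was not tested.

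Marker genes of several cell types were measured in the same isolates. The median differences of the 14 proximal tubule markers were −1.90, −0.60 and 2.47 in mice 1, 2 and 3, and those of 8 macrophage and leukocyte markers were 1.42, −0.14 and −1.04. All 14 of the tubule markers and 6 of the 8 leukocyte markers had a 2-fold range, where 5.94% of all genes above background had one. None of the 4 smooth muscle markers above background and none of the 10 endothelial markers did. The median differences were 0.05, 0.04 and −0.11 for podocyte markers and 0.17, −0.14 and −0.01 for endothelial markers. Of the 9 podocyte markers 1 had a 2-fold range, the transcription factor gene Tcf21, at 12.44, 11.27 and 12.02 (2.25-fold). No difference between these lists and the members was tested.

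**Figure D4:**
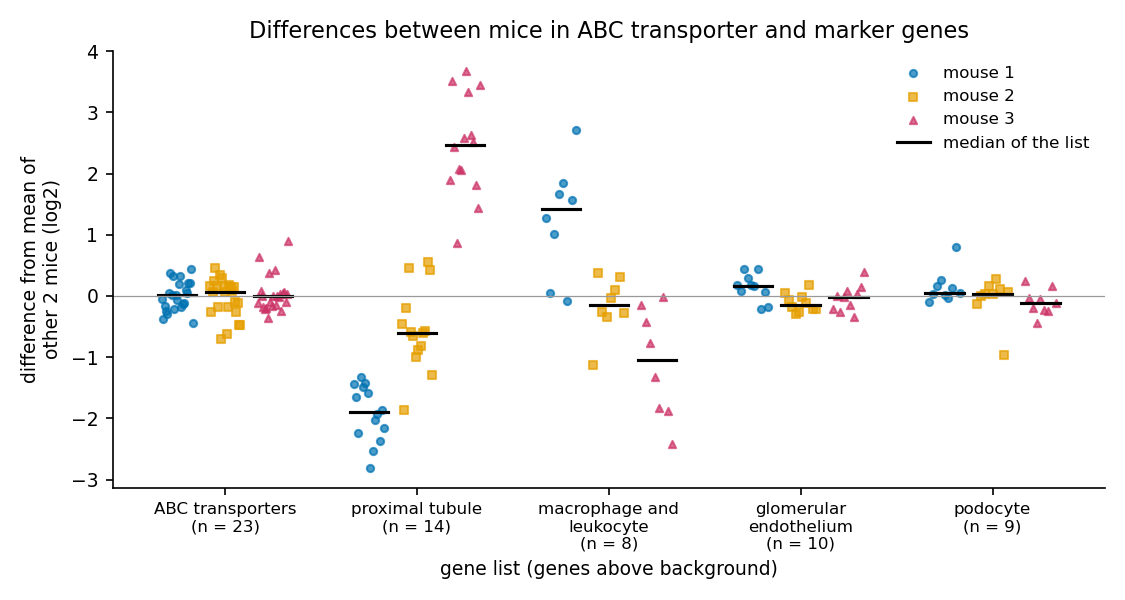
Difference of each mouse from the mean of the other 2 mice (log2, vertical axis) for the genes above background in the ABC transporter list and 4 marker lists (horizontal axis), with a point for each gene and mouse and a bar for the median. The medians of the 23 ABC transporter genes are 0.02, 0.07 and −0.01 in mice 1, 2 and 3. Single genes lie further out, such as Abcg2 at 0.90 in mouse 3 and Abcb1a at −0.70 in mouse 2. Podocyte markers have medians of 0.05, 0.04 and −0.11, and proximal tubule markers of −1.90 in mouse 1 and 2.47 in mouse 3.

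Members with more than 1 probe set show whether the probe sets of a gene rank the mice alike. Of 27 such members, 10 had more than 1 probe set above background in all mice, and for 3 of these 10 (Abca3, Abce1 and Abcf1) the same mouse was highest, or tied for highest, on each. For Abcf1 this was mouse 3, which tied with mouse 1 on the probe set that stands for the gene. Over all genes with more than 1 such probe set the share, ties counted in the same way, was 39.5%, and over those with a 2-fold range it was 72.7%. The share depends on the number of probe sets. With exactly 2 above background it was 33.3% of members (2 of 6) and 51.1% of all genes. Abcb1a had its highest value in mouse 3 on one probe set (7.54, 6.86 and 7.59) and in mouse 1 on the other (7.63, 6.69 and 7.19), while mouse 2 was lowest on both. Mouse 2 was also lowest on both probe sets of Abcg1. The dimmer of these had the only 2-fold range among the 40 member probe sets above background, at 4.01, 3.19 and 4.48 (2.45-fold), with mouse 3 the highest where the brighter had mouse 1. Abca5 gave opposite orders, with mouse 2 highest on one probe set (9.22, 9.56 and 9.39) and lowest on the other (3.33, 3.02 and 3.22). Abcb10 was highest in mouse 2 on the probe set given above and in mouse 1 on the other (4.59, 4.19 and 4.31). For Abcc9 the other probe sets were at 5.52, 5.67 and 5.75 and at 4.08, 3.70 and 4.11, both highest in mouse 3. Those of Abcf3 were at 5.41, 5.88 and 5.73 and at 3.27, 3.31 and 3.39, so each of its 3 probe sets had another mouse as the highest. Abcc5 had 5 probe sets above background, and the 4 not given above were at 5.12, 5.34 and 5.31, at 3.88, 3.73 and 3.73, at 3.53, 3.53 and 3.62 and at 2.89, 3.30 and 3.12. Their order of the mice differed too, with the highest value in mouse 1, mouse 2 or mouse 3 by the probe set. Abcg2 and Abcc4 have 1 probe set each, so no such check could be made for them. The call of a gene rests on its brightest probe set, and other probe sets of the same gene can be below background. For Abca1, Abca9, Abcd3 and Abcd4 every other probe set was below background in all mice. The second probe set of Abcc1 was above it in mice 2 and 3 only, and that of Abcf2 in mouse 1 only.

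**Figure D5:**
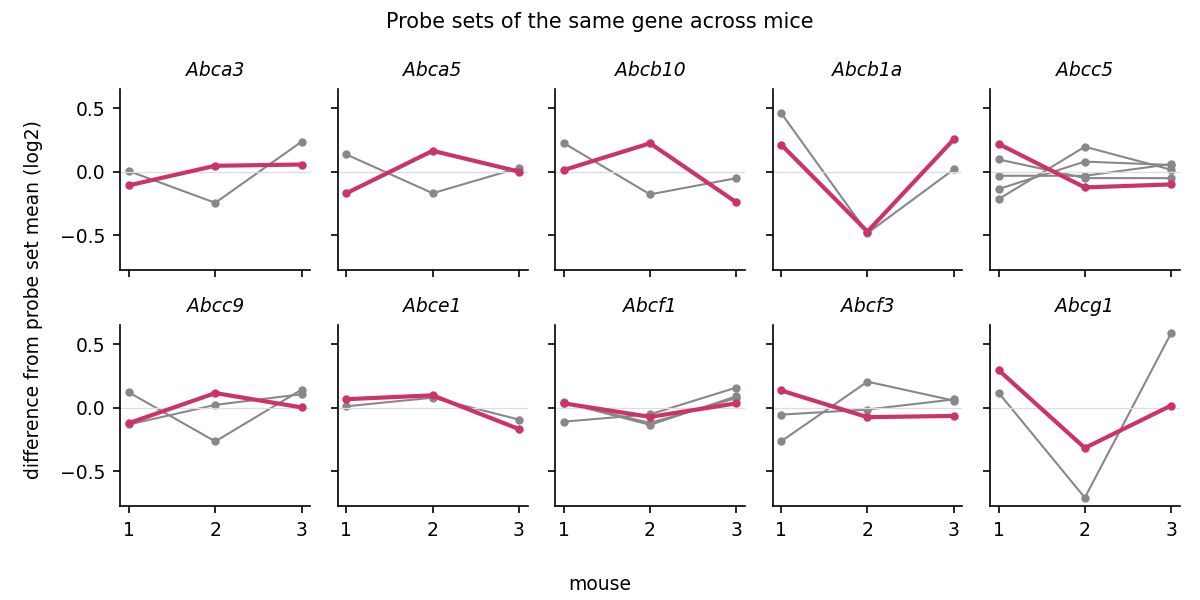
Difference of each mouse from the probe set's mean (log2, vertical axis) by mouse (horizontal axis) for the 10 members with more than 1 probe set above background, 1 line per probe set, with the one that stands for the gene in red. The lines of Abcb1a and Abcg1 share their lowest point in mouse 2, and those of Abca5 cross.

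Partners and regulators of these transporters were taken from a list of 30 genes with a probe set, which include the sterol-sensing nuclear receptors, apolipoproteins, scaffold proteins and the peptide transporter genes Tap1 and Tap2. Above background in all mice were 26 of the 30, and 4 of these had a 2-fold range. The median SD of the 26 was 0.200, against 0.159 for the members. Tap1 and Tap2 encode ABC proteins that supply peptides to MHC class I but carry other symbols, and they were at 5.60, 4.13 and 8.34 and at 7.87, 7.30 and 9.29 in mice 1, 2 and 3. Pdzk1, a scaffold protein of the proximal tubule brush border, was at 3.99, 4.46 and 6.82, the order of the proximal tubule markers. Pparg, a nuclear receptor that raises Abca1 and Abcg1 expression in macrophages, was at 3.94, 3.08 and 4.25. All 4 were highest in mouse 3, and none passed the limma test, as no gene did. Across the partner list the median difference was −0.07, −0.10 and 0.15 in mice 1, 2 and 3.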

How the data were processed

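Each of 3 arrays measured glomerular RNA of 1 mouse. The values the authors deposited are taken to be on a log2 scale, inferred from their range of 0.67 to 14.76. GCRMA summarised the arrays per the submitters' processing notes, and its version and the arrays normalised together are not given in the sources used here. No further normalisation was applied, and 0 columns were left unused.

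Probe sets with 1 gene symbol in the platform annotation were used (34958 of 45101). For a gene with several, the one with the highest mean stood for it. All 46 member gene identifiers matched the reference table (GRCm38.p6). Background was the 95th percentile of 80 olfactory and vomeronasal receptor probe sets on each array. Genes above it on all arrays were tested for excess variance with limma 3.58.1 in R 4.3.3 (robust fit with a trend on level, upper tail, Benjamini-Hochberg at 0.05), which was tested on simulated data. There, 200 genes were given a raised SD. The test called 0% of them at 5 or 20 times the typical SD, and 67.5% at 80 times. The number of arrays and the signal over background limit the precision.

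Members, lists and tests were chosen with earlier results of these data known. By rule, all members were named, with values where above background in all mice or mixed, and partners with a 2-fold range. Statistics were to be given for members with a 2-fold range or adjusted p under 0.05, of which there were none, and for the 4 with the smallest SD. Those of other members were added after their values were seen.

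Alternatives were the 99th percentile or a fixed background of 4, the mean over probe sets, quantile normalisation, median centring, no filter on dim genes, no trend, no robust fit and leaving out each mouse.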

Additional observations from a re-analysis of the deposited data

How the results depend on the processing

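Stricter backgrounds, at the 99th percentile or at 4, left 21 members above background in place of 23, and both lost Abca8b and Abcc3. Leaving out each mouse gave 24 to 24. The count of members with excess variance was 0 under every alternative run, which says little because the test finds little with so few arrays. The lowest adjusted p of a member by limma was 0.745 (0.862 in the fit as reported), and for Abcg2 the alternatives ranged from 0.745 to 0.9997. The count with a 2-fold range was 1 with no filter on dim genes (Abca13) and 1 with each probe set as its own feature (Abcg1), the latter chosen after seeing the data. It was 0 under the others. The median SD was 0.105 with the mean over probe sets, against 0.159, and 0.113 to 0.146 without 1 mouse. The median difference of mouse 1 was 0.02 and turned to −0.02 with the averaged probe sets or with no filter, and to −0.02 and −0.08 without mouse 2 and without mouse 3. That of mouse 2 was 0.07 and turned to −0.02 with the averaged probe sets. That of mouse 3 was −0.01 and turned above 0 under 6 alternatives, to at most 0.02. It was not computed with no trend, no robust fit or each probe set as its own feature. No paired analysis was possible because there is only 1 group.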
